A study of Mus musculus with 8 samples.

Results

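The creatine and adenylate kinase energy shuttle was followed through 9 genes that were chosen by name: Ckm, Ckmt2, Ckb, Slc6a8, Gatm, Gamt, Ak1, Ak3 and Ak4. All 9 had a row in the deposited table of 17911 genes. RNA came from single whole hearts of wild-type C57Bl6/J mice, 4 of each sex. The age is given as 4 weeks in the description of the design and as 4 to 6 weeks in the protocol, and a single batch is labelled for the 8 hearts. The replicates are single hearts, numbered 1 to 4 in females and 1, 3, 4 and 5 in males. Recovered reads ran from 51.7 M (female replicate 4) to 75.7 M (male replicate 4), and the 9 genes had between 2249 and 1012777 reads over the 8 hearts. Each of 11 cardiomyocyte markers had a normalized read count of at least 27029 in each heart, and sums of markers of most other cell types overlapped between the sexes.

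Heart muscle spends ATP at a high rate, and a small store of phosphocreatine buffers it. Creatine is made in a pair of steps, by the enzymes that Gatm and Gamt encode, and it enters muscle through the transporter that Slc6a8 encodes. Creatine kinases move a phosphate between ATP and creatine: the mitochondrial enzyme charges creatine where ATP is made, and the cytosolic enzyme recovers ATP where it is spent. Adenylate kinases exchange phosphates among adenine nucleotides, so that ATP can be regained from ADP, and the AMP they form is a signal for AMP-activated protein kinase, an energy sensor.

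Of the 9 genes, Ak3 fell in female hearts, 8 did not pass the test and 0 rose. The test was limma over all genes, on log2 of the normalized read count plus 1, and calls needed an adjusted p (Benjamini-Hochberg) below 0.05. Of all genes tested, 1.16% were called in either direction, 0.687% lower in females and 0.475% higher. The fold changes of 8 of the 9 genes were negative, from -0.44 for Gatm to -0.06 for Ak1, and that of Slc6a8 was 0.00. The median of the 9 log2 fold changes was -0.15, beside 0.00 over all genes. At an unadjusted p under 0.05 stood 6 of the 9, where 16.0% of all genes did. The sexes did not overlap for 2 of the 9, Ak3 and Gatm, both lower in females. Of all genes, 9.35% had no overlap, and 4.82% were lower in females without overlap. All measurements are of whole-heart RNA, in which fewer cells of a type and less RNA per cell cannot be told apart.

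**Figure D1:**
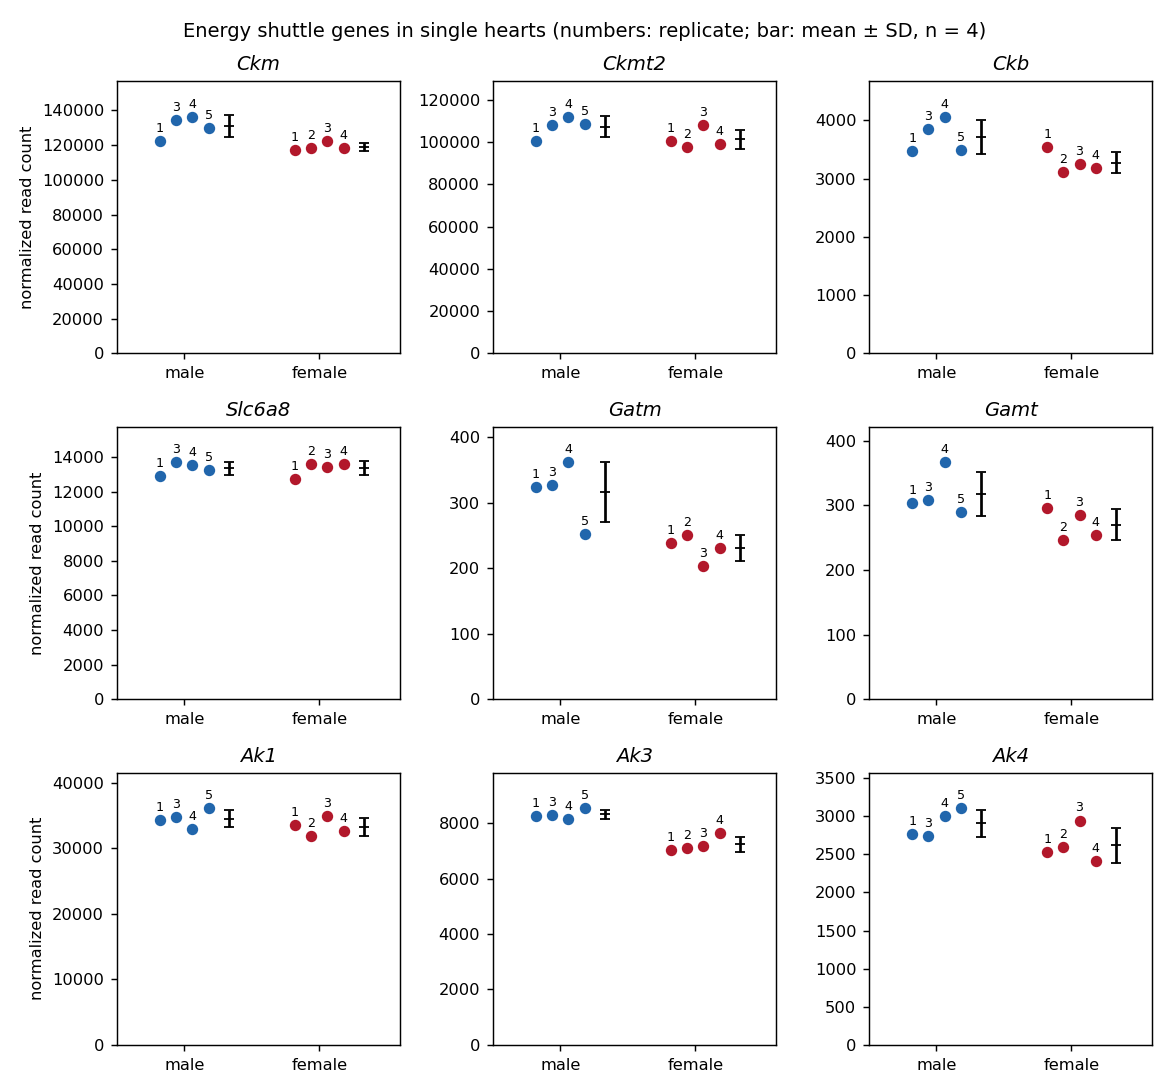
Normalized read count (vertical axis, from 0) of each of the 9 genes in the 4 male and 4 female hearts, with the replicate number above each point and the mean ± SD beside each group. Ak3 and Gatm have no overlap between the sexes, and for Gatm male replicate 5 (252) lies next to the highest female heart (250).

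Of the creatine kinase genes, Ckmt2 and Ckm came first in level among the 9, and Ckb stood below Ak1, Slc6a8 and Ak3. Their upstream sequences are shown because the genes encode the same reaction at levels that differ by more than an order of magnitude. They are from RefSeq (GRCm38.p6), 5′ to 3′ on the strand of the gene, and run from 250 bases before the start to the start or to the first annotated exon. Capitals mark matches on either strand. An E box was searched as CANNTG and a TATA box as TATAAA. The letters searched for a GC box were GGGCGG. The CCAAT box was taken by its name and the MEF2 motif likewise.
Ckm, chr7:19410844-19411024, plus strand: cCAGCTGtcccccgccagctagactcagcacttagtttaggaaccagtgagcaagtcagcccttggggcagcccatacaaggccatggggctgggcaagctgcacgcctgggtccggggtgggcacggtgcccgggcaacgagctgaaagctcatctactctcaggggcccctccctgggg
Ckmt2, chr13:91876886-91877135, minus strand: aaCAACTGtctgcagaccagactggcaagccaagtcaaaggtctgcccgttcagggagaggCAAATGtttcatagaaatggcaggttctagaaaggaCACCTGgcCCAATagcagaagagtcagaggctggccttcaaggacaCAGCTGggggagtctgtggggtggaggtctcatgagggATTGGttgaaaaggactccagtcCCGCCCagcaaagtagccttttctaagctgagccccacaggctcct
Ckb, chr12:111672339-111672588, minus strand: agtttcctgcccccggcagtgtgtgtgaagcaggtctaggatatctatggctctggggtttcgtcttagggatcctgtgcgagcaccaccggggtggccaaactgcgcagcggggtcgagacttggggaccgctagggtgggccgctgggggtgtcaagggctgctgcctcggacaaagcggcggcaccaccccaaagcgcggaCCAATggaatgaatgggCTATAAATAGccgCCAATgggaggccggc
In windows of 300 bases around the start, Ckm held 1 E box and no match to the other motifs. Ckmt2 held 4 E boxes, 2 CCAAT boxes and 1 GC box. Ckb held 0 E boxes, 2 CCAAT boxes as Ckmt2 did, and 1 TATA box that overlaps its 1 match to the MEF2 motif. An E box was present in 72.3% of 32851 such windows of all genes, a CCAAT box in 37.4%, a TATA box in 13.6%, a GC box in 35.7% and the MEF2 motif in 3.19%. The estrogen response element (0.0700% of windows) and the androgen and glucocorticoid response element (0.00913% of windows), both searched as full palindromes with a spacer of any bases, had 0 matches in the windows of the members that matched the RefSeq promoter table. Slc6a8 had no entry there. A match is a run of letters only and no match says nothing of the factor.

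Ckm encodes the cytosolic muscle creatine kinase (chromosome 7, 19404776 to 19422841, plus strand, mm10, GENCODE vM21). Its normalized read count was 117082, 118159, 122549 and 118418 in female replicates 1, 2, 3 and 4. In male replicates 1, 3, 4 and 5 it was 122443, 134647, 136478 and 129726. Male replicate 1 lay just under female replicate 3, and the other male hearts were above all female hearts. Female hearts averaged 119052 ± 2402 and male hearts 130824 ± 6272 (SD, n = 4 each). The log2 fold change was -0.13 (SE 0.04, 95% interval -0.22 to -0.05), or -8.93% relative to males, and it did not pass (limma adjusted p = 0.112). DESeq2 on the recovered reads gave -0.14 with an adjusted p = 0.0218, and it was the 1 alternative of 22 that called Ckm. Over all genes with an adjusted p, 4.9% were called by DESeq2 and 4.9% in the authors' deposited table, where Ckm had an adjusted p = 0.0217. The antisense gene A930016O22Rik shares 15.5% of the exon bases of Ckm, with 363 ± 80.6 normalized reads in females and 370.4 ± 62.2 in males.

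Ckmt2 encodes the sarcomeric mitochondrial creatine kinase (chromosome 13, 91853387 to 91876885, minus strand). Female hearts had normalized read counts of 100477, 97633, 107952 and 98935 in replicates 1 to 4. Male hearts had 100418, 108053, 112073 and 108464 in replicates 1, 3, 4 and 5. Female replicate 3 lay among the male hearts and male replicate 1 among the female hearts. Female against male, the log2 fold change was -0.08 (SE 0.04, 95% interval -0.17 to 0.01, limma adjusted p = 0.362).

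Ckb encodes the brain-type cytosolic creatine kinase, which in the heart is also found outside muscle cells (chromosome 12, 111669361 to 111672338, minus strand). The normalized read count was 3538, 3117, 3259 and 3184 in female replicates 1 to 4. It was 3468, 3853, 4067 and 3492 in male replicates 1, 3, 4 and 5. Female replicate 1 lay above male replicates 1 and 5, and the other female hearts were below all male hearts. The log2 fold change was -0.18 (SE 0.06, 95% interval -0.31 to -0.06), or -11.9% relative to males (limma adjusted p = 0.151). Of the 50-base runs in its transcripts 9.89% also occur in the pseudogene Gm12892, so its count may hold or lack shared reads. Summed smooth muscle and pericyte markers, set beside Ckb, ran from 158312 to 172833 in females and from 154618 to 166723 in males. Summed nerve and Schwann markers ran from 2019 to 2665 in females and from 1804 to 2335 in males. Both sums had the higher mean in females, and 0 of the 8 and 0 of the 9 measured markers were called. Other lists lay in the direction of Ckb: 6 of 7 endothelial markers had negative fold changes, with mean sums of 84916 in females and 88895 in males, and all 7 macrophage markers were lower in females, with mean sums of 13484 and 17454. Their part in the values of Ckb was not tested.

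Per length, the creatine kinase pool was almost wholly Ckm and Ckmt2. In each heart Ckm exceeded Ckb by 32.9-fold to 37.7-fold and Ckmt2 exceeded Ckb by 53.7-fold to 64.5-fold, per kb of merged exons. The share of Ckb in the sum of the 3 genes was 1.03% ± 0.06 (female) and 1.08% ± 0.05 (male). With the shortest coding transcript as length it made up 1.33% and 1.40%, and with the principal transcript 1.96% and 2.06%. The order of Ckmt2 and Ckm turned with the length that was assumed for Ckm. Per kb of merged exons Ckmt2 stood at 1.57 to 1.73 times Ckm, and with the shortest coding transcript, 1235 bases for Ckm in place of 2913, at 0.667 to 0.732 times Ckm. Inside a heart the log2 ratio of Ckmt2 to Ckm averaged 0.05 higher in females than in males, and that of Ckb to Ckm 0.05 lower, and both overlapped between the sexes. Ckmt1, the ubiquitous mitochondrial creatine kinase, stood at 71.9 ± 8.98 normalized reads in female and 72.1 ± 16.2 in male hearts.

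**Figure D2:**
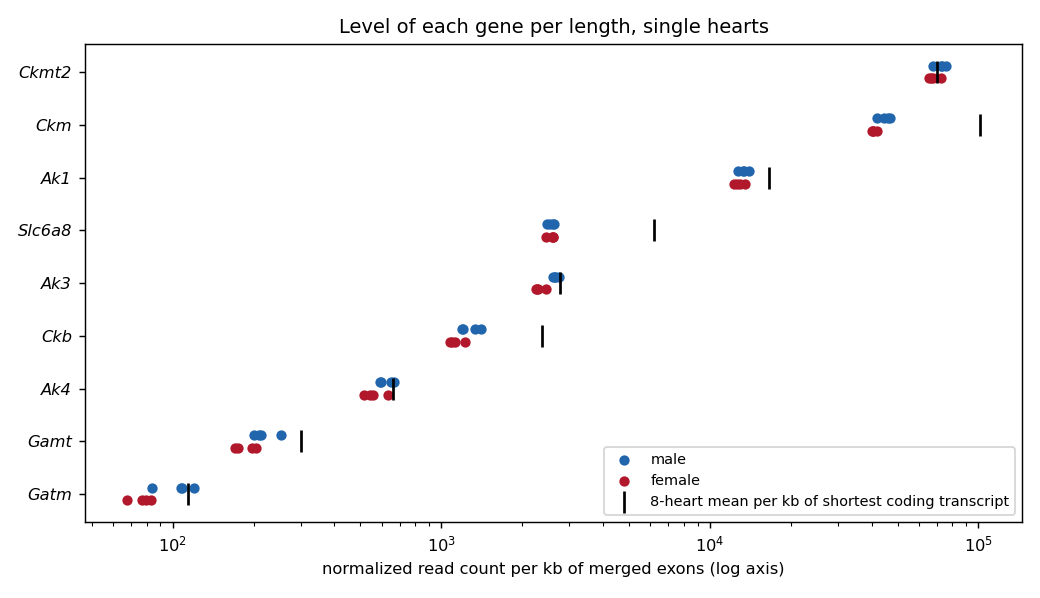
Normalized read count per kb of merged exons (log axis) of each gene in single male and female hearts, with a bar for the 8-heart mean per kb of the shortest coding transcript. The levels run from 67.8 for Gatm in 1 female heart to 75419 for Ckmt2 in 1 male heart, and the bar of Ckm lies above that of Ckmt2 while its points lie below.

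Over all 9 genes the order of levels per kb of merged exons was Ckmt2, Ckm, Ak1, Slc6a8, Ak3, Ckb, Ak4, Gamt and Gatm. The means over 8 hearts were 70155 ± 3669 for Ckmt2, 42890 ± 2635 for Ckm and 13078 ± 543 for Ak1 (SD). They were 2561 ± 68.0 for Slc6a8, 2491 ± 196 for Ak3 and 1208 ± 113 for Ckb. Ak4 had 594.5 ± 52.8, Gamt 203.3 ± 25.6 and Gatm 91.0 ± 18.7. Slc6a8 and Ak3 were neighbours whose ranges over the 8 hearts overlapped (2446 to 2627 and 2254 to 2736), and the ranges of the other neighbours did not. The near tie depended on the length: with the principal transcript the means were 4026 for Slc6a8 and 2767 for Ak3. With the shortest coding transcript they were 6202 and 2767. Ckmt2 ranked 21 and Ckm 34 among 17832 nuclear genes by this measure, Ak1 ranked 156, and Gatm ranked 10370.

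Slc6a8 encodes the creatine transporter and lies on the X chromosome (73673150 to 73682502, plus strand). Its normalized read count was 12743, 13600, 13446 and 13591 in female replicates 1 to 4. It was 12872, 13689, 13524 and 13267 in male replicates 1, 3, 4 and 5. The sexes overlapped almost fully, with means of 13345 ± 407 (female) and 13338 ± 356 (male). The log2 fold change was 0.00 (SE 0.03, limma adjusted p = 0.995). Its 95% interval ran from -0.07 to 0.07, or from -4.79% to 5.12%. The highest heart exceeded the lowest by 1.07 times, the smallest such span among the 9 genes. The log2 ratio of Slc6a8 to Ckm was higher in each female heart (0.03 to 0.11 about the 8-heart mean) than in any male heart (-0.11 to -0.02). The ratio to Gatm did not overlap either, at 0.10 to 0.41 in females and -0.41 to 0.08 in males, and the ratio to Gamt overlapped.

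The creatine synthesis genes were at a low level in these hearts. Gatm encodes glycine amidinotransferase, the first and rate-limiting step, which is known mainly from kidney (chromosome 2, 122594467 to 122611303, minus strand). Its normalized read count was 239, 250.2, 203 and 230.2 in female replicates 1 to 4. It was 323, 326, 361 and 252 in male replicates 1, 3, 4 and 5. The sexes did not overlap, and male replicate 5 stood just above the highest female heart. Female hearts averaged 231 ± 19.9 and male hearts 316 ± 45.8 (SD). The log2 fold change of -0.44 was the largest in size of the 9 (SE 0.11, 95% interval -0.69 to -0.20), or -26.5% relative to males, and it did not pass (limma adjusted p = 0.0837).

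Gatm moved across the threshold with the settings. It passed with DESeq2 (adjusted p = 0.00925) and in limma without male replicate 5 (log2 fold change -0.55, adjusted p = 0.0106). With a block by the replicate number of the titles it also passed (-0.59, limma adjusted p = 0.0471), and under the other 19 alternatives it did not. In that block female replicate 2 and male replicate 5 have no heart of the same number, so neither enters the fold change. Both of these limma fits thus leave male replicate 5 out of the fold change. The authors' deposited table lists an adjusted p = 0.00925. Gatm had at least 189 reads in each heart. Counting alone gives it a spread of 0.09 on the log2 scale, beside 0.18 observed within the sexes. Kidney, liver and pancreas markers had a sum of 158 to 344 normalized reads in females and 175 to 335 in males over the 3 measured of 9 listed. Gatm itself ran from 203 to 250 in females and from 252 to 361 in males. The marker sums averaged 255.9 in females and 256.1 in males, where Gatm averaged 231 and 316. Whether other tissue had a part in the count of Gatm was not tested.

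Gamt encodes guanidinoacetate methyltransferase, which completes creatine (chromosome 10, 80258151 to 80261012, minus strand). Female replicates 1 to 4 had normalized read counts of 296, 246, 285 and 253. Male replicates 1, 3, 4 and 5 had 303, 309, 367 and 289.6. Male replicate 4 stood above the rest, and female replicate 1 lay above male replicate 5. Female against male, the log2 fold change was -0.23 (SE 0.10, 95% interval -0.44 to -0.02, limma adjusted p = 0.269). The transporter exceeded both synthesis genes in each heart, by 21.6-fold to 38.1-fold for Gatm and by 10.2-fold to 15.3-fold for Gamt per kb of merged exons. These folds were larger with the shorter transcript lengths.

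Ak3 encodes the adenylate kinase of the mitochondrial matrix, which uses GTP (chromosome 19, 29020833 to 29047961, minus strand). Its normalized read count was 7031, 7092, 7176 and 7642 in female replicates 1 to 4. It was 8261, 8301, 8144 and 8537 in male replicates 1, 3, 4 and 5. Each male heart was above each female heart, with female replicate 4 the nearest. Female hearts averaged 7235 ± 278 and male hearts 8311 ± 165 (SD). Ak3 fell by 0.20 on the log2 scale (SE 0.03, 95% interval -0.27 to -0.13), or by 13.0%, with a limma adjusted p = 0.0162. The authors' deposited table gives a log2 fold change of -0.20.

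The call of Ak3 ended without female replicate 2 (log2 fold change -0.19, limma adjusted p = 0.0697), with both blocks by replicate number and with the fold threshold of the labels, while 18 of 22 alternatives called it. The fold change stayed between -0.23 and -0.18 under all 22 alternatives. Ak3 also overlaps Cdc37l1, a gene on the opposite strand, over 430 bases or 13.8% of its merged exons, and whether reads were counted by strand is not given. Female hearts had 5152 ± 104 normalized reads of Cdc37l1 and male hearts 5627 ± 260, also without overlap (log2 fold change -0.13, limma adjusted p = 0.122). The antisense gene 1700018L02Rik shares 9.07% of the exon bases and had 137 ± 3.80 in females and 131 ± 17.5 in males. How many reads of Ak3 lie in the shared bases was not tested.

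Ak1 encodes the main cytosolic adenylate kinase of muscle (chromosome 2, 32621758 to 32635058, plus strand). The normalized read count was 33573, 31833, 34944 and 32691 in female replicates 1 to 4. It was 34360, 34772, 32958 and 36157 in male replicates 1, 3, 4 and 5. The sexes were interleaved: male replicate 4 lay below female replicates 1 and 3. The log2 fold change was -0.06 (SE 0.04, 95% interval -0.14 to 0.03, limma adjusted p = 0.523).

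Ak4 encodes a second matrix adenylate kinase, related in sequence to Ak3 (chromosome 4, 101419277 to 101466995, plus strand). Female replicates 1 to 4 had normalized read counts of 2532, 2590, 2943 and 2406. Male replicates 1, 3, 4 and 5 had 2770, 2745, 3008 and 3105. Female replicate 3 lay above male replicates 1 and 3. Female against male, the log2 fold change was -0.15 (SE 0.06, 95% interval -0.29 to -0.02, limma adjusted p = 0.264). Of the 50-base runs in the transcripts of Ak4, 10.2% also occur in the pseudogene Ak3l2-ps, so part of its reads may not map to a single place.

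Within the adenylate kinases the share of Ak3 was lower in females. Per kb of merged exons the share of Ak1 in the sum of Ak1, Ak3 and Ak4 was 81.6% ± 0.63 (female) and 80.2% ± 0.40 (male). Ak3 made up 14.8% ± 0.77 in females, from 14.0% to 15.7%, and 16.0% ± 0.24 in males, from 15.8% to 16.3%, with no overlap. Without division by length the groups overlapped, from 15.92% to 17.88% in females and from 17.86% to 18.46% in males. Ak4 made up 3.58% ± 0.24 and 3.77% ± 0.23. The log2 ratio of Ak3 to Ak1, which does not depend on the length or the scaling, was -0.16 to 0.03 in females and 0.05 to 0.11 in males about the 8-heart mean. The ratios of Ak4 to Ak3, Ak3 to Ckm and Ak1 to Ckm were also computed, and all overlapped between the sexes. Of all ratios given, only those of Ckb to Ckm, Ckmt2 to Ckm, Slc6a8 to Gatm and Slc6a8 to Gamt were planned. How often ratios of other gene pairs lack overlap was not computed. Ratios and shares are given as descriptions and were not tested.

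**Figure D3:**
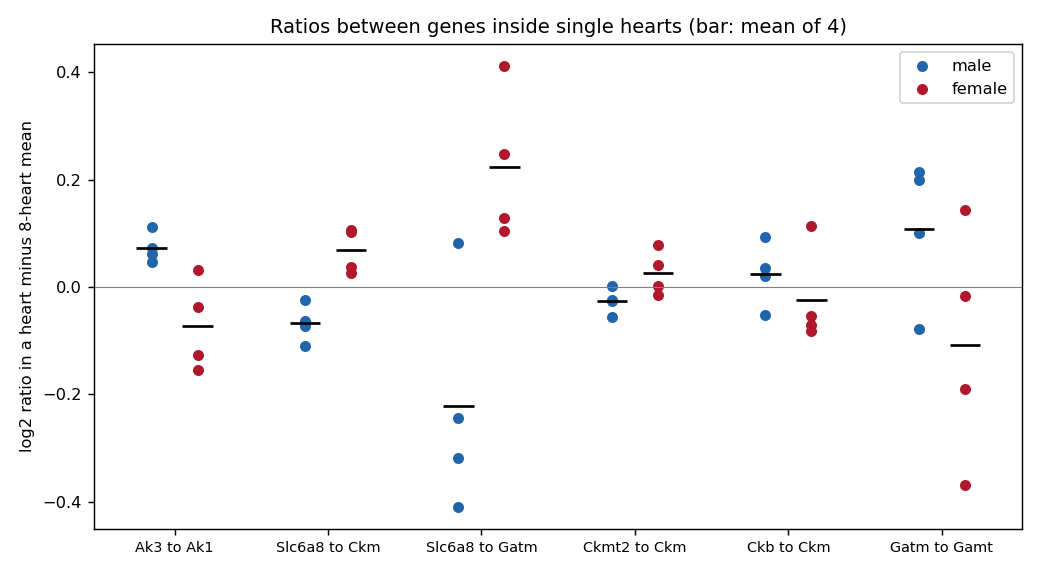
Log2 ratio of the normalized read counts of pairs of genes inside each heart, minus the mean over 8 hearts (vertical axis), for male and female hearts, with a bar at the mean of each group of 4. The ratios of Ak3 to Ak1, Slc6a8 to Ckm and Slc6a8 to Gatm have no overlap between the sexes, and those of Ckmt2 to Ckm, Ckb to Ckm and Gatm to Gamt overlap.

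The 9 genes differed in how much they varied among hearts of a sex. The within-sex SD on the log2 scale was 0.04 for Slc6a8 and Ak3, 0.05 for Ckm, 0.06 for Ak1 and 0.07 for Ckmt2. It was 0.10 for Ckb, 0.11 for Ak4, 0.14 for Gamt and 0.18 for Gatm. Of all genes 10.6% had a smaller SD than Slc6a8, and 65.3% had a smaller SD than Gatm. For 7 of the 9 genes the counting error alone was under 0.03, and for Gatm and Gamt it was 0.09.

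The highest and lowest hearts differed between the genes. Male replicate 4, which had the most reads, was the highest heart for 5 genes, Ckm, Ckmt2, Ckb, Gatm and Gamt. Male replicate 5 was the highest for 3, Ak1, Ak3 and Ak4, and male replicate 3 for Slc6a8. All 9 lowest values were in female hearts, 4 of them in replicate 2 and 3 in replicate 1. Slc6a8 is among them, though its lowest female heart (12743) stood close to its lowest male heart (12872). The 9 genes were read in the same 8 hearts, and how often other genes have such extremes was not computed. Profiles over the 8 hearts were compared after standardising each gene, as a root mean square distance that is 0 for the same shape. The closest pair of the 9 was Ckb and Gamt (0.361), followed by Ckm and Ckmt2 (0.493), and the farthest was Slc6a8 and Ak1 (1.57).

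Among 12776 other genes with a mean normalized read count of at least 100, 1 most alike profile was named for each gene. For Ckmt2 it was Ndufb8 (distance 0.145), for Ak4 Coq8a (0.145) and for Gatm Pla2g7 (0.146). For Ckm it was Spats2 (0.188), for Gamt Sqstm1 (0.191), for Ckb Dbi (0.219), for Slc6a8 Sec24a (0.273) and for Ak1 Ppp2r2a (0.280). For Ak3 it was the Y-linked gene Uty (0.186), which had 6.80 ± 10.9 in females and 1446 ± 41.5 in males. Uty reached the mean of 100 only through the male hearts, and its profile is a step between the sexes. The match therefore restates the difference of Ak3 between the sexes and adds no support to it. Standardising removes size, so this likeness covers the order and spacing of the hearts and not the extent of the change. How near the closest of so many genes lies for other genes was not computed, so all these matches are descriptions only.

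The list of other energy transfer genes held 58 symbols, with some genes under both an older and a newer symbol. It covers further adenylate and nucleotide kinases, the ATP export carriers, AMP-activated protein kinase, regulators and some other genes. Of its genes 50 were measured. Of these Prkab2 fell, 0 rose and 49 did not pass, beside the 1.16% called over all genes. The median log2 fold change was -0.01, and 27 of 50 were negative. Prkab2 encodes the muscle-rich beta subunit of AMP-activated protein kinase. Its normalized read count was 3433, 3276, 3372 and 3566 in female replicates 1 to 4 and 4695, 4317, 4812 and 4862 in male replicates 1, 3, 4 and 5. The sexes stood far apart, and Prkab2 fell by 0.45 in log2 units (SE 0.04, adjusted p = 0.00025 in limma). It was called under all 21 alternatives that keep the same threshold.

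The 6 genes of that list with the next smallest p did not pass in limma. The guanylate kinase gene Guk1 had a log2 fold change of -0.16 (adjusted p = 0.0631) and the adenylosuccinate synthase gene Adssl1 -0.14 (adjusted p = 0.234). Stk11, the upstream kinase of AMP-activated protein kinase, had 0.13 (adjusted p = 0.0737) and its gamma subunit gene Prkag1 0.14 (adjusted p = 0.0798). The taurine transporter gene Slc6a6, of the same family as Slc6a8, had 0.21 (adjusted p = 0.136) and the nuclear receptor gene Esrrb 0.15 (adjusted p = 0.203). Guk1, Stk11 and Prkag1 had no overlap between the sexes. Of the 50 measured genes of the list 5 had no overlap, Prkab2 among them, beside 9.35% of all genes. The heart ADP/ATP carrier gene Slc25a4 stood at 285342 ± 8936 normalized reads in female and 284075 ± 8157 in male hearts (log2 fold change 0.01), and it was chosen after its values were seen.

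**Figure D4:**
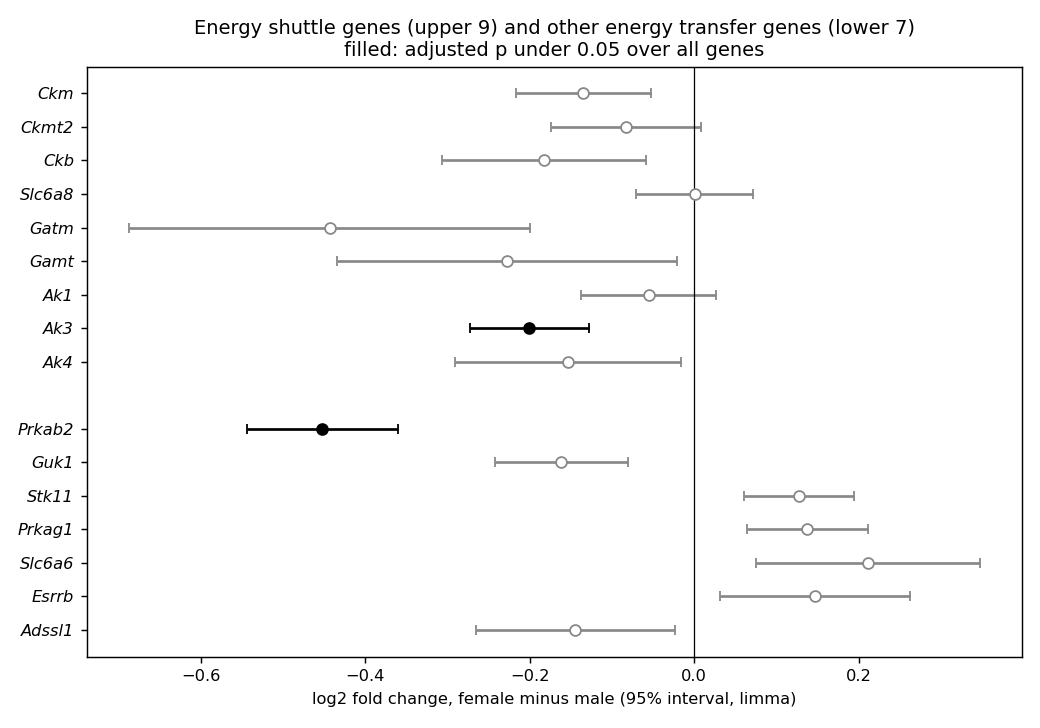
Log2 fold change, female minus male, with its 95% interval from limma (horizontal axis) for the 9 energy shuttle genes and, below the gap, for 7 other energy transfer genes. Filled points passed an adjusted p under 0.05: Ak3 at -0.20 and Prkab2 at -0.45.

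Markers of other cell types were set beside these values. All 7 macrophage markers had lower female means, 3 were called (Csf1r, C1qa and C1qb), and their sum ran from 12308 to 14433 in females and from 15365 to 18964 in males, in the same direction as Ak3, Gatm and the other 6 genes with a negative fold change. Their part in those results was not tested. The sum of the 6 measured skeletal muscle fibre markers, of 11 listed, was 580.0 to 1168 in females and 786 to 1221 in males, far under the 117082 normalized reads that Ckm had in its lowest heart. Myh1, Myh2, Myh4, Myf6 and Myod1 of that list were not analysed here. Summed fat markers ran from 2543 to 7641 in females and from 3691 to 4970 in males, summed endothelial markers from 79204 to 88768 and from 82265 to 95017, and both overlapped. Ryr2 rose in females (log2 fold change 0.20, adjusted p = 0.0341 in limma), the 1 called of 11 cardiomyocyte markers. Lum rose (0.30, adjusted p = 0.00285 in limma), the 1 called of 7 fibroblast markers. Neither list moved as a whole. For 6 cardiomyocyte markers the female level was the lower, most so for Actc1 (-0.19, no overlap), and the list median was -0.001. Their sums averaged 4958988 in females and 4827825 in males. For fibroblast markers 2 were lower, the list median was 0.02, and the sums averaged 69483 in females and 69789 in males.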

How the data were processed

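Hearts of 4 male and 4 female mice were compared. The deposited table holds, per the values, a deposited signal: reads per gene scaled by the authors with a single factor for each heart. It also holds the authors' log2 fold change and their unadjusted and adjusted p-values. Per the submitters' processing notes the build was mm10; the aligner, the counter, use of strand and the authors' test: not given in the sources used here. All values were whole multiples of 1 read (100% within 0.001 reads), so whole reads were recovered for edgeR and DESeq2 as alternatives. The protocol names a small RNA kit, the molecule field total RNA.

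Females were compared with males by limma 3.58.1 (R 4.3.3, trend and robust options) across genes with a value of at least 1 in 4 hearts (0 removed), after log2(value + 1) and without covariates. Fold changes on this scale understate low genes. Since the labels do not say how the hearts were paired or handled, p-values cover the spread between these hearts only. Counting error per gene came from the recovered reads. Alternatives used edgeR 4.0.16, DESeq2 1.42.0, limma-voom, other pseudocounts, filters and scalings, each heart left out, blocks by replicate number, total reads as a covariate and the 5 deepest hearts. Principal and shortest transcript lengths were chosen after seeing the data.

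Positions and exon lengths came from GENCODE vM21 of the same build, upstream sequences from RefSeq. Genes named beyond the 9 were the called and the 6 next genes of the energy transfer list, called markers (at most 4 a list), the most alike gene of each, and paralogues and overlapping genes. The 9 genes and all lists were chosen with earlier results of these data known. The fit was tested on simulated counts.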

Additional observations from a re-analysis of the deposited data

How the results depend on the processing

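The count of 208 called genes was 690 with DESeq2, 26 with a block by library code number and 145 with a block by title number, and it ran from 77 (without female replicate 2) to 516 (without male replicate 5) when 1 heart was left out. Among the 9 genes the count of 1 became 3 with DESeq2 (Ckm, Gatm and Ak3), 0 with the thresholds stated in the labels (log2 fold change over 0.6 in size and p under 0.05), 0 with the library code block, and 0 to 2 with 1 heart left out. With the title number block it was 1, but the gene was Gatm in place of Ak3. Ak3 had a limma adjusted p = 0.127 with the title number block and 0.178 with the library code block. Of the 50 other energy transfer genes 1 was called; it was 5 with DESeq2, 0 with the labels' thresholds, 2 with total reads as a covariate, 2 in the 5 hearts with the most reads, and 1 to 3 with 1 heart left out. The sign of Slc6a8 turned with the title number block (-0.011), the library code block (-0.0018), total reads as a covariate (-0.00095), the 5 hearts with the most reads (-0.021) and in 5 of 8 fits without 1 heart (-0.016 to 0.023 over the 8). For the other 8 genes the fold change was negative under all 22 alternatives. The causes of these changes were not tested. A heart whose number occurs in 1 sex only does not enter the fold change of a block fit. Those hearts were female replicate 2 and male replicate 5 by title number, and female replicate 2 and male replicate 4 by library code. The labels do not say whether the replicate numbers pair the hearts. Same-numbered hearts deviated with correlations across genes of 0.166, -0.0463 and -0.108 by title number and 0.166, -0.0463 and 0.124 by library code. So few pairs, with both signs among them, cannot settle whether hearts of a number were handled together. Shares of the kinase sums kept their order under all lengths except for Ckm and Ckmt2, and the shares of Ak3 overlapped between the sexes when length was not used. The fewest reads were those of Gatm and Gamt, with at least 189 and 208 per heart, where counting error was below the spread observed within the sexes.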
